A study of Mus musculus with 23 samples.

Results

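miR-210-3p (mmu-miR-210-3p in the deposited tables) is the main mature product of the mouse Mir210 gene and was followed here across 6 populations of type 2 lymphocytes and their precursors. It was taken by name and is 1 of 1256 microRNA entries in the deposited small RNA count tables, in which it had reads in all 23 libraries. It was chosen by its deposited counts and normalized values, with its pattern over the populations already known, so its levels and differences are a description and carry no test.

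The study set group 2 innate lymphoid cells (ILC2) beside CD4+ T helper cells before and after activation, in mice and in culture. Cultured Th2 (4 libraries) were wild-type CD4+ cells taken from spleen and lymph nodes on magnetic beads and kept for 5 days with anti-CD3, anti-CD28, an interferon gamma antibody at 10 µg/ml and IL-4 at 500 U/ml. OVA-lung Th2 (3 libraries) were CD45+ CD11c- CD11b- CD4+ CD3+ 4get+ lung cells of Il4tm1LKy mice, in which the Il4 locus drives a fluorescent reporter. Those mice were sensitized in the peritoneum with 50 µg of ovalbumin (OVA) and alum over 3 weeks and then breathed in 50 µg of OVA on 3 days. CD4 T cells (4 libraries) were untreated wild-type CD4+ CD62Lhi CD44lo CD25- CD69- cells of spleen and lymph nodes. Cultured ILC2 (4 libraries) were wild-type lung CD45+ Thy1+ lin- CD4- CD25+ ST2+ cells grown for 10 days with 10 ng/ml of IL-33, TSLP and IL-7. IL-33 ILC2 (4 libraries) came from lung after 500 ng of IL-33 given into the airway for 3 days, and lung ILC2 (4 libraries) came from the same sort in untreated wild-type mice. OVA-lung Th2 thus differ from CD4 T cells in genotype, organ and sort as well as in activation, and these cannot be told apart. The bead-selected cells of the Th2 culture were not sorted for the naive phenotype of the CD4 T cells.

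A microRNA guides an Argonaute protein to messenger RNAs that pair with its seed, bases 2 to 8 of the mature strand. miR-210 is the microRNA most widely used as a marker of hypoxia: the hypoxia-inducible factor HIF-1 binds its promoter, and in many human and mouse cells its level follows HIF activity. Its described targets include mRNAs for the iron-sulphur cluster scaffold ISCU and other parts of mitochondrial respiration. In mouse T cells HIF-1 also works at normal oxygen after antigen receptor and mTOR signalling, and miR-210 has been described in activated T cells as a restraint on Hif1a and on Th17 differentiation. No library of this study was labelled as hypoxic.

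The sequences of both arms and of the hairpin are shown because reads were assigned to them by these letters. All are from RefSeq on GRCm38.p6. Capitals mark the seed in the mature arms, and in the hairpin they mark the 5p arm (bases 28 to 49) and the 3p arm (bases 66 to 87).
miR-210-3p: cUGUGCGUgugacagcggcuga
miR-210-5p: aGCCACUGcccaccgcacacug
Mir210 hairpin: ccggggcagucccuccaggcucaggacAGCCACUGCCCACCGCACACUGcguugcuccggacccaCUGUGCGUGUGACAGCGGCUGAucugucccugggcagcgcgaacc
The 110-base hairpin lies on the minus strand at chr7:141221384-141221493, the 3p arm at chr7:141221407-141221428 and the 5p arm at chr7:141221445-141221466. No annotated gene overlaps it in the GRCm38 annotation other than Mir210 itself. Rassf7 ends 2726 bp before it, Phrf1 starts 7291 bp after it, and the nearest other microRNA gene, Mir7063, is 399208 bp away, so miR-210 is not part of a microRNA cluster there. Among 1679 mature entries in the RefSeq table, miR-210-3p was the only one with the seed UGUGCGU. Of its 22 bases, 14 are G or C (63.6%), against a median of 47.8% over the 310 tested entries with a sequence, 19 of which were above it.

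The libraries held 84911 to 28371898 rounded counts, and 1 read was worth 0.0352 counts per 1000000 (CPM) in cultured Th2 library 1 and 11.8 CPM in OVA-lung Th2 library 3. Libraries of 1 replicate number share 1 of 4 count tables, per the labels, called sets 1 to 4 here, and no OVA-lung Th2 library is in set 4. The labels do not say whether replicates came from separate mice or cultures, so standard deviations (SD), standard errors (SE) and p-values measure the spread between these libraries, which may be technical. miR-142a, found in all blood cells, took 0.153% to 12.5% of the counts of a library, and miR-150-5p of resting lymphocytes 0.588% to 11.4% in CD4 T cells. The share of miR-150-5p was 0.00688% to 0.0996% in cultured Th2 and 0.161% to 4.43% in OVA-lung Th2, whose median of 4.24% was close to the 4.86% of CD4 T cells. In lung ILC2 miR-150-5p took 0.0441% to 0.4248%, and in cultured ILC2 0.001408% to 0.05002%, both below every CD4 T cell library. IL-33 ILC2, at 0.02419% to 0.7796%, overlapped CD4 T cells. Lung ILC2 also overlapped OVA-lung Th2 and cultured Th2. miR-150-5p thus separated lung ILC2 from CD4 T cells, but not ILC2 from T cells in all populations. The shares of miR-142a in lung ILC2 (0.6255% to 5.241%) and CD4 T cells (1.926% to 12.5%) overlapped.

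miR-210-3p was most abundant in cultured Th2, by a wide margin in 3 of the 4 libraries. It reached 18749.5, 15028, 5640.2 and 333 CPM in cultured Th2 libraries 1 to 4. OVA-lung Th2 libraries 1 to 3 had 374, 334 and 11.8 CPM. CD4 T cell libraries 1 to 4 had 539.8, 75.6, 212 and 28.9 CPM. The lowest cultured Th2 library therefore fell inside the range of the CD4 T cells and of the OVA-lung Th2, while the other 3 lay far above it. In cultured Th2 library 1 miR-210-3p was the entry with rank 10 by abundance, and it ranked 13, 19 and 40 in the other libraries. Cultured Th2 held 98.3% of the 581118 reads of miR-210-3p in the series, 531958 of them in library 1, the deepest of all.

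Among the ILC2, miR-210-3p had 1736, 1491, 840.2 and 133 CPM in cultured ILC2 libraries 1 to 4. IL-33 ILC2 had 325, 435, 683 and 26.3 CPM. Lung ILC2 had 2397, 302, 23.3 and 37.6 CPM. Lung ILC2 library 1 stood above every other ILC2 library, and the 3 ILC2 populations overlapped.

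The lowest values rest on few reads. OVA-lung Th2 library 3 held 1 read (exact 95% interval 0.298 to 65.6 CPM), and lung ILC2 library 3 held 2 reads (2.83 to 84.3 CPM), with 11 in library 4. Cultured Th2 library 4, by contrast, held 1327 reads among 3983017 counts, with an interval of 315 to 352 CPM. These intervals cover counting error only.

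**Figure D1:**
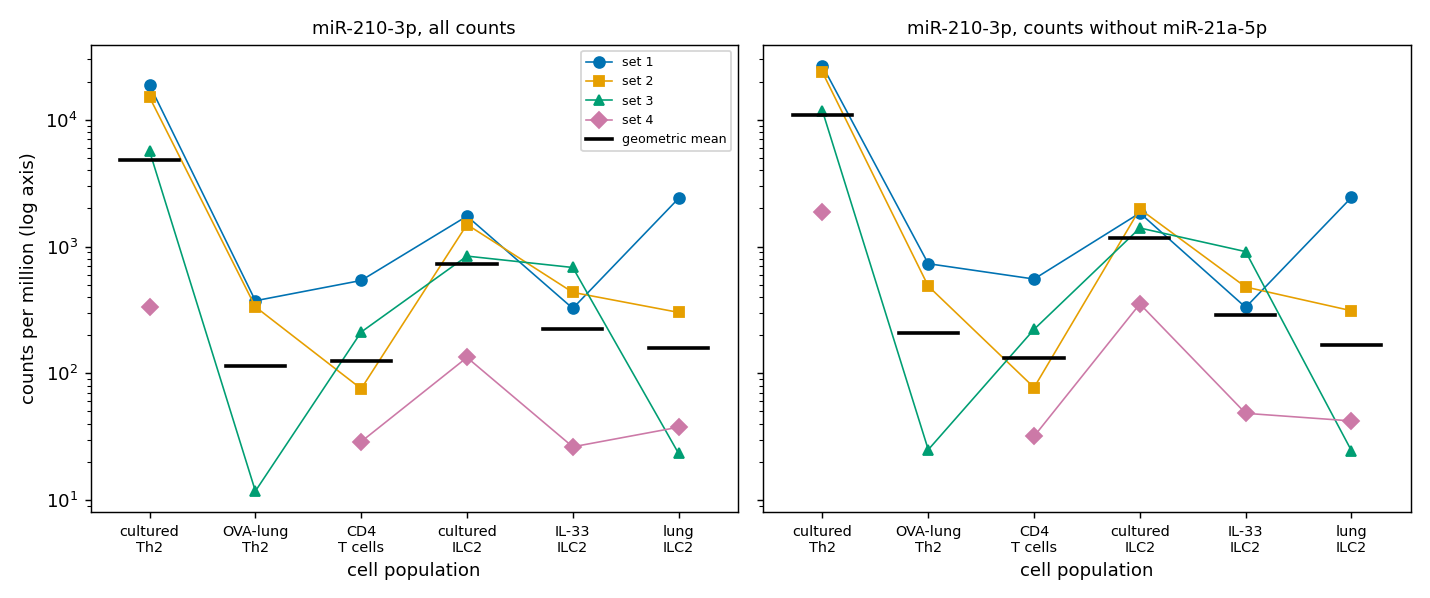
CPM of miR-210-3p in each of the 23 libraries on a log axis, from all counts (left) and after leaving miR-21a-5p out of the total (right); points joined by a line come from 1 set, and black bars are geometric means. Cultured Th2 lead in every set, and no library of set 4 exceeds 333 CPM in the left panel.

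The populations fell in the order cultured Th2, cultured ILC2, IL-33 ILC2, lung ILC2, CD4 T cells and OVA-lung Th2 by geometric mean, at 4797, 734, 225, 159, 126 and 114 CPM. Means and SDs in the same order were 9938 ± 8451, 1050 ± 719, 367 ± 272, 689.96 ± 1145, 214 ± 231 and 239.9 ± 199 CPM (n = 4, and 3 for OVA-lung Th2). Cultured ILC2 and cultured Th2 differed by -2.71 on the log2 scale, more than the pooled SD of 2.24. The other neighbours in that order differed by less than their pooled SD, for example cultured ILC2 and IL-33 ILC2 by 1.71 against 1.92. Fewer cells that carry a microRNA and less of it per cell cannot be told apart in such bulk libraries.

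miR-21a-5p, an abundant microRNA of activated lymphocytes, took part of every total. It made up 29.4%, 36.4%, 51.9% and 82.2% of the counts in cultured Th2 libraries 1 to 4, against 2.16% to 9.26% in CD4 T cells. With miR-21a-5p left out of the totals, cultured Th2 had 26576, 23646, 11720.0 and 1875 CPM of miR-210-3p. On that scale the cultured Th2 no longer overlapped CD4 T cells or OVA-lung Th2, and the same held for log2 CPM with TMM factors, a scaling that sets aside the most changed entries. The other 7 pairs examined overlapped on all 3 scales. The geometric mean of OVA-lung Th2, 207 CPM without miR-21a-5p, then moved above lung ILC2 (167) and CD4 T cells (132).

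Levels also differed by set. In a fit with a term for each set, miR-210-3p was lower by 2.12 ± 0.64 in set 2, 2.29 ± 0.70 in set 3 and 4.66 ± 0.78 in set 4 than in set 1 (log2 ± SE). The median of all 384 tested entries moved by 0.71, -1.14 and -0.70. The drops in sets 2, 3 and 4 placed miR-210-3p at positions 44, 140 and 53 from the lowest of the 384. What differed between the sets is not given in the sources used here.

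Taken within each set, the order was steadier. Cultured Th2 came first in 4 of 4 sets and cultured ILC2 second in 3 of 4, lung ILC2 being second in set 1. Cultured Th2 exceeded CD4 T cells 11.5-fold to 199-fold, with a mean log2 ratio of 5.25 ± 1.73 (SD, 4 sets). Cultured Th2 exceeded OVA-lung Th2 44.9-fold to 479-fold in the 3 sets that hold both (6.68 ± 1.93). The upper end there rests on the OVA-lung library with 1 read.

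Cultured ILC2 were above IL-33 ILC2 in all 4 sets, by 1.23-fold to 5.34-fold (mean log2 1.71 ± 0.98), and above lung ILC2 in 3 of 4 (2.21 ± 2.31). The widest log2 ratio to lung ILC2, 5.17 in set 3, rests on a lung ILC2 library with 2 reads. Cultured ILC2 were below cultured Th2 in all 4 sets, at 0.0926 to 0.400 of its level (-2.71 ± 0.97). Cultured ILC2 thus stood above IL-33 ILC2, and cultured Th2 above OVA-lung Th2, in every set that held the pair. Cultured Th2 and OVA-lung Th2 also differ in genotype, organ and sort, which cannot be told apart from culture. The pairs share libraries, so these counts are not independent of each other.

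The other pairs, among them both activated in the animal, showed no common direction. OVA-lung Th2 were above CD4 T cells in 1 of 3 sets (-0.85 ± 3.17), and IL-33 ILC2 above lung ILC2 in 2 of 4 (0.50 ± 3.24). IL-33 ILC2 exceeded OVA-lung Th2 in 2 of 3 sets (2.01 ± 3.34), and lung ILC2 exceeded CD4 T cells in 3 of 4 (0.34 ± 2.48). Each of these mean ratios was smaller than its SD. In each of these pairs set 3 gave the most extreme log2 ratio, -4.17, 4.87, 5.86 and -3.18 in the same order. There the OVA-lung Th2 library had 1 read and the lung ILC2 library 2 reads. For IL-33 ILC2 over OVA-lung Th2, sets 1 and 2 gave -0.20 and 0.38.

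**Figure D2:**
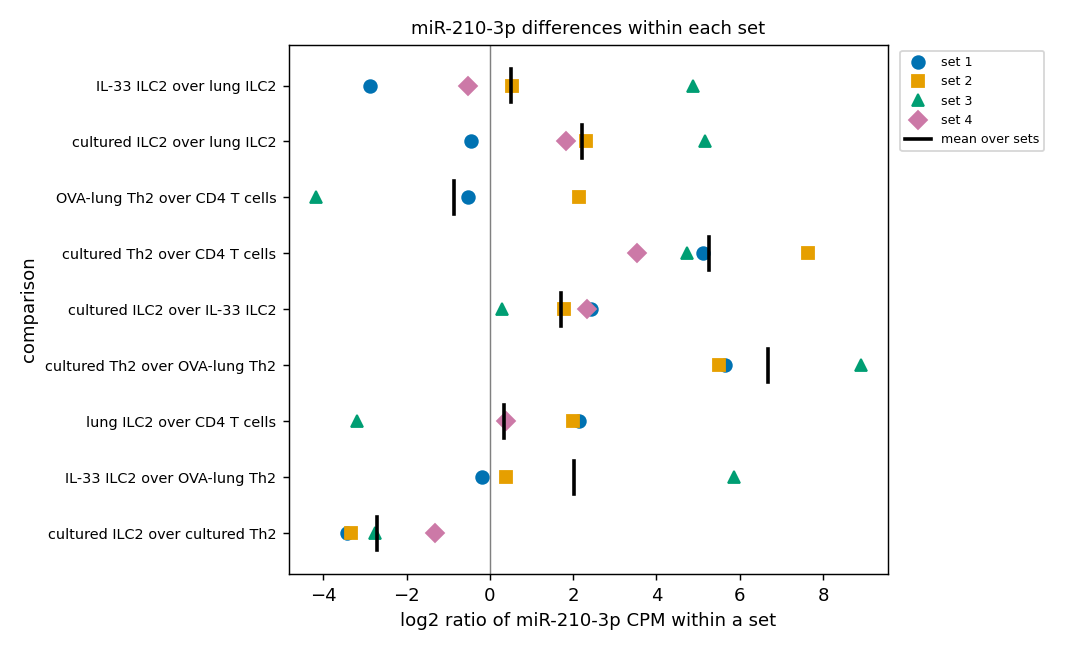
The log2 ratio of miR-210-3p CPM between 2 populations within each set, with the mean over sets as a black bar. All points lie right of 0 for cultured Th2 over CD4 T cells, cultured Th2 over OVA-lung Th2 and cultured ILC2 over IL-33 ILC2, and all lie left of 0 for cultured ILC2 over cultured Th2.

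Fitted across all entries with edgeR, miR-210-3p was 5.94 ± 1.53 higher in cultured Th2 than in CD4 T cells (log2 ± SE), and 5.99 ± 0.92 higher with the set as a block. It stood at positions 10 and 14 from the highest of 384 in those fits. Against OVA-lung Th2, cultured Th2 were higher by 6.07 ± 1.75, or 6.58 ± 1.08 with the block. Cultured ILC2 differed from cultured Th2 by -3.62 ± 1.37, or -3.36 ± 0.81 with the block.

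The remaining fitted differences were smaller, and some changed sign with the setting. Cultured ILC2 stood 1.46 ± 1.26 above lung ILC2, or 2.54 ± 0.81 with the block, where the median entry was 0.58 and 0.73 higher. Against IL-33 ILC2 the cultured ILC2 were 1.73 ± 1.27 higher, or 1.5 ± 0.78 with the block. That difference ran from 1.39 to 1.94 under the 12 alternatives described below. IL-33 ILC2 differed from lung ILC2 by -0.26 ± 1.24, or 1.04 ± 0.84 with the block, and OVA-lung Th2 from CD4 T cells by -0.12 ± 1.34, or -0.60 ± 0.87. IL-33 ILC2 over OVA-lung Th2 gave 0.73 ± 1.36, or 1.73 ± 0.92, and lung ILC2 over CD4 T cells 0.87 ± 1.25, or 0.09 ± 0.78.

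In the fits without the block, lung ILC2 library 1 weighed most on the comparisons with lung ILC2. Without it, IL-33 ILC2 were 2.45 ± 1.39 above lung ILC2 and cultured ILC2 were 4.19 ± 1.52 above them. Lung ILC2 then differed from CD4 T cells by -1.85 ± 1.35. The differences of lung ILC2 from IL-33 ILC2 and from CD4 T cells thus changed sign. Cultured ILC2 stayed above lung ILC2 whichever library was left out (1.07 to 4.19). Endothelial microRNAs (miR-126a) took 0.0256% to 2.16% of the counts in lung ILC2, against 0% to 0.0317% in CD4 T cells. Mesenchymal ones took 0.435% to 1.10% in lung ILC2, against 0.000924% to 0.0122% in CD4 T cells. Endothelial ones had medians of 0.191% in IL-33 ILC2 and 0.01985% in cultured ILC2, and mesenchymal ones 0.105% and 0.01095%. Erythroid ones reached 1.86% in lung ILC2, 0.969% in OVA-lung Th2 and 0.443% in CD4 T cells. Their medians were 0.200%, 0.744% and 0.00919%, so OVA-lung Th2 were highest by median. Epithelial ones took 0% to 0.137% in lung ILC2 (median 0.0310%) and 0.0263% to 0.0939% in CD4 T cells (median 0.0637%). Myeloid ones took 0% to 0.0969% in lung ILC2 and 0.000231% to 0.0720% in CD4 T cells. These values describe populations and do not single out library 1. The part of such microRNAs in the miR-210-3p levels was not tested.

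The passenger arm, miR-210-5p, was seen in 7 libraries, with 1067 reads in all. Cultured Th2 libraries 1 to 4 had 704, 291, 0 and 47 reads of it. Cultured ILC2 library 2 had 21, CD4 T cell libraries 1 and 2 had 2 and 1, and IL-33 ILC2 library 2 had 1. None was read in lung ILC2 or OVA-lung Th2. The low counts kept miR-210-5p out of the tested entries.

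The 3p arm made up 99.8% of all hairpin reads. The share of the 5p arm was 0.132% in cultured Th2 library 1 (exact 95% interval 0.123% to 0.142%), 0.890% in library 2 (0.791% to 0.998%) and 3.42% in library 4 (2.52% to 4.52%). In library 3 there was none among 5674 reads, where the exact 95% interval reaches up to 0.0650%. These values differed between libraries of 1 population, and no test of that spread was made. Cultured ILC2 library 2 had 0.422% (0.261% to 0.644%). The other 3 cultured ILC2 libraries had no 5p read, and 0 of 1603 in library 1 allow a share of up to 0.230% by that interval. In lung ILC2 library 2, the deepest of its group in hairpin reads, 0 of 427 reads allow up to 0.860% by that interval.

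Other microRNAs tied to hypoxia were counted in 2 lists, 1 of microRNAs reported to rise in hypoxic cells, mostly human cancer lines (15 members), and 1 of microRNAs reported to target mRNAs of the HIF pathway (10 members), 22 together. All 22 were among the 384 tested. A call is an adjusted p below 0.05 in edgeR's quasi-likelihood test with Benjamini-Hochberg adjustment over the 384. The comparisons with CD4 T cells share those libraries, and so do those with lung ILC2.

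In cultured Th2 against CD4 T cells, 1 member rose and 1 fell, where 0.521% of all tested entries rose and 0.521% fell. With the set as a block, 7 of 22 rose (31.8%) and 2 fell (9.09%), beside 8.59% and 4.69% of all entries. The median member was 1.46 higher in that fit, against 0.38 for all entries. miR-199a-5p had no read in either population, and without it the median of the other 21 was 1.32. With the block and library totals in place of TMM, the balance turned to 1 rise and 4 falls, beside 2.86% and 6.25% of all entries. With the block and DESeq2 size factors there were 9 rises and 2 falls, beside 11.2% and 2.86%. Among the 7 rises, miR-23a-3p, miR-23b-3p, miR-24-3p and miR-27a-3p come from related transcripts, so the members are not independent. Of those 7, only miR-17-5p was on the list of microRNAs reported to target the HIF pathway. These shares are a description and no test of the lists.

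miR-21a-5p rose in both fits. It was higher in cultured Th2 in 4 of 4 sets, by 4.37 ± 0.49 with the block (edgeR adjusted p = 2.806e-08). miR-181a-5p, known to set how sensitive the T cell receptor is in mice, went the other way. It had 1071, 584, 669.98 and 65.0 CPM in cultured Th2, against 8020.5, 31945, 27540.0 and 15122 CPM in CD4 T cells, without overlap. The difference was -4.26 ± 0.69 with the block (edgeR adjusted p = 2.239e-05) and it was also called without the block. Both calls held without any 1 of the 8 libraries in the blocked fit. Without the block, that of miR-21a-5p was lost without CD4 T cell library 1 or 2 or cultured Th2 library 1 or 4 (adjusted p of 0.1172 to 0.1779), and that of miR-181a-5p without CD4 T cell library 2 or 3 or cultured Th2 library 2, 3 or 4 (0.05516 to 0.1489).

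miR-26a-5p, reported to target the mRNA of the Polycomb enzyme EZH2, had 2225, 4242, 1236 and 57.5 CPM in cultured Th2, against 25029, 26687, 5335 and 955 CPM in CD4 T cells. It was lower in 4 of 4 sets and fell by 2.32 ± 0.57 with the block (edgeR adjusted p = 0.005479). miR-24-3p, which is made from the same precursor transcripts as miR-23 and miR-27, rose by 1.92 ± 0.42 with the block (edgeR adjusted p = 0.001469). It had 155640, 20836, 8182 and 358 CPM in cultured Th2, against 28655, 7218, 4921 and 493 CPM in CD4 T cells, so it was higher in 3 of 4 sets. Its call was lost when libraries were scaled by their totals (adjusted p = 0.07093) or without cultured Th2 library 1 (0.0555).

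The remaining 5 calls under the block, named after their values were seen, were the rises of miR-23a-3p, miR-23b-3p, miR-27a-3p, miR-103-3p and miR-17-5p. All 5 were also called with the block and DESeq2 size factors. None of these 5 was called when libraries were scaled by their totals, with adjusted p of 0.07156 to 0.2102. With 1 library left out, miR-23a-3p kept its call in 6 of 8 fits, miR-17-5p in 4, miR-27a-3p and miR-103-3p in 3 and miR-23b-3p in 1. miR-107-3p, which differs from miR-103-3p by few bases and may share its reads, was not called. Scaling by totals moved the median of all entries to -0.30, against 0.38 with TMM.

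In OVA-lung Th2 against CD4 T cells no member was called without the block, beside 0% of all entries. At an unadjusted p below 0.05 there were 4 members, beside 68 of all 384 entries. DESeq2 called 3 of the 20 members it gave an adjusted p as higher, beside 6.84% of all entries, and limma 1 of 22, beside 0.781%. With the block 2 of 22 rose and none fell, beside 2.86% of all entries that rose and 3.39% that fell, 6.25% together. miR-21a-5p rose by 3.93 ± 0.50 (edgeR adjusted p = 1.084e-06).

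miR-27a-3p, reported to restrain effector T cell responses in mice, was the other. It had 2418, 9649 and 5959 CPM in OVA-lung Th2, against 300.3, 514, 1850.4 and 254 CPM in CD4 T cells, without overlap. It rose by 2.56 ± 0.66 with the block (edgeR adjusted p = 0.01799), a call lost without CD4 T cell library 1 (0.1092), library 2 (0.1659) or library 4 (0.07967). miR-210-3p itself was at -0.60 ± 0.87 in that fit, close to the median of -0.58 over all entries.

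In cultured ILC2 against lung ILC2 the 1 member called was miR-21a-5p, where 0.26% of all entries rose. With the block 2 of 22 rose, beside 3.65% of all entries that rose and 4.43% called in either direction. miR-21a-5p made up 5.56%, 24.4%, 40.0% and 62.2% of the counts in cultured ILC2, against 1.69%, 2.96%, 4.80% and 10.7% in lung ILC2, and rose by 3.71 ± 0.48 (edgeR adjusted p = 1.425e-06). Without the block its call was lost without any 1 of 6 of the 8 libraries, lung ILC2 libraries 1, 2 and 3 and cultured ILC2 libraries 1, 2 and 4 (0.06416 to 0.3882).

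miR-155-5p, which is induced in activated lymphocytes, had 366, 20185, 3099.5 and 614 CPM in cultured ILC2, against 969, 711, 11.7 and 17.1 CPM in lung ILC2. It rose by 5.00 ± 1.39 (edgeR adjusted p = 0.04117). With DESeq2 size factors or library totals it was no longer called, nor without any 1 of 6 of the 8 libraries, lung ILC2 libraries 2, 3 and 4 and cultured ILC2 libraries 2, 3 and 4, with adjusted p of 0.05074 to 0.2023. The median member was -0.04, against 0.73 for all entries.

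In IL-33 ILC2 against lung ILC2 no member was called without the block, beside 0% of all entries. At an unadjusted p below 0.05 there was 1 member, beside 22 of all 384 entries, and DESeq2 and limma called 0 members. With the block miR-21a-5p rose by 2.60 ± 0.47 (edgeR adjusted p = 0.0009887), where 0.521% of all entries rose. The adjusted p was above the threshold without IL-33 ILC2 library 4 (0.4587) or lung ILC2 library 2 (0.1035). In each of the 4 comparisons, then, miR-21a-5p rose with the block.

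**Figure D3:**
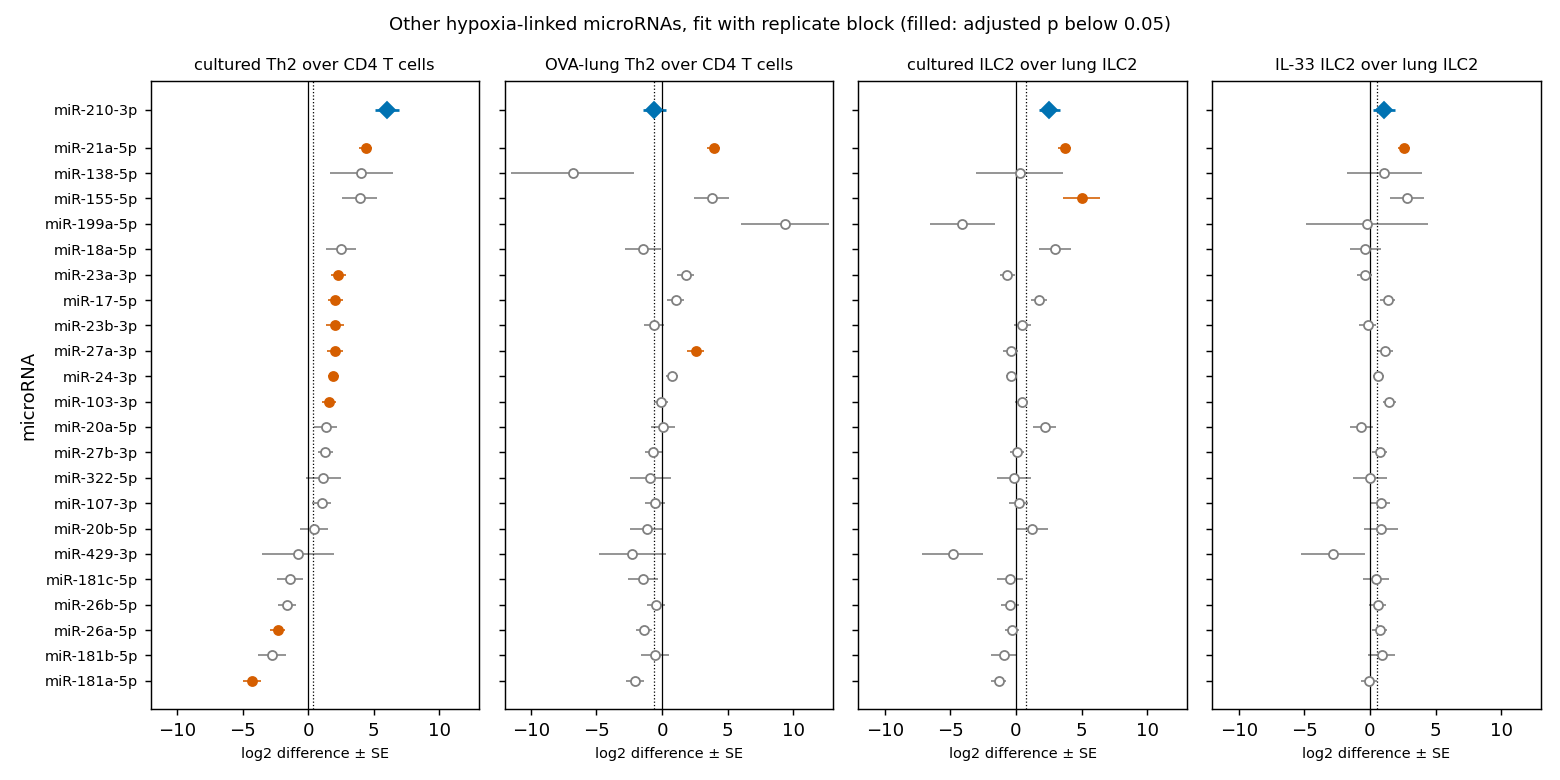
The log2 difference ± SE of the 22 hypoxia-linked microRNAs in 4 comparisons, fitted with the set as a block; filled orange points passed an adjusted p of 0.05, blue diamonds are miR-210-3p (not tested), and dotted lines are the median of all 384 entries. miR-199a-5p, without reads in cultured Th2 and CD4 T cells, is left out of the first panel, where miR-210-3p stands at 5.99 beside miR-21a-5p at 4.37.

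Among 197 tested entries whose mean log2 CPM was 6 or more, those whose log2 CPM followed miR-210-3p most closely over the 23 libraries were miR-34a-5p, miR-98-5p, miR-301b-3p, miR-186-5p and miR-17-5p. Their Pearson r was 0.77, 0.76, 0.76, 0.75 and 0.70, and their Spearman rho 0.77, 0.83, 0.80, 0.72 and 0.59. The libraries share sets, depth and populations, so these are descriptions. The mature sequences of 4 of them are printed, with the seed in capitals, to show that these 4 do not share the seed of miR-210-3p. That of miR-301b-3p was not compared.
miR-34a-5p: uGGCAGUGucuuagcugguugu
miR-98-5p: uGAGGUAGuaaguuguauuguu
miR-186-5p: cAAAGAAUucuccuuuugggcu
miR-17-5p: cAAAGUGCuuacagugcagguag
miR-34a-5p is a transcriptional target of p53, miR-98-5p has the seed of the let-7 family, here held by 11 mature entries, and miR-17-5p belongs to the miR-17-92 cluster of proliferating lymphocytes.

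miR-34a-5p was highest in the same 2 populations as miR-210-3p. Its CPM ran from 24.9 to 1657 with a median of 632 in cultured Th2, and its median was 21.6 in CD4 T cells. It ran from 126 to 2927 with a median of 447 in cultured ILC2, against medians of 4.24 in IL-33 ILC2 and 142 in lung ILC2. Unlike miR-210-3p, its mean log2 CPM was about as high in cultured ILC2 (9.08 ± 1.49) as in cultured Th2 (9.17 ± 1.92).

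Which entries came closest changed with the measure. Centred on the mean of each set, 3 of the same 5 were among the closest 5, miR-34a-5p (r = 0.80), miR-186-5p (0.78) and miR-301b-3p (0.75), each about as high as before, while miR-98-5p (0.71) and miR-17-5p (0.59) fell outside. Over the means of the 6 populations 2 of the 5 remained, miR-301b-3p (r = 0.93) and miR-186-5p (r = 0.94), and without cultured Th2 also 2, miR-98-5p (r = 0.81) and miR-186-5p (r = 0.73).

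The 3 entries with the lowest r were miR-203-3p (-0.69), miR-30d-5p (-0.56) and miR-181b-5p (-0.53). miR-203-3p ran from 3.77 to 12.9 CPM in cultured Th2, against 144 to 585 CPM in CD4 T cells. Without cultured Th2 its r was -0.25, so its place rested on that population.

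**Figure D4:**
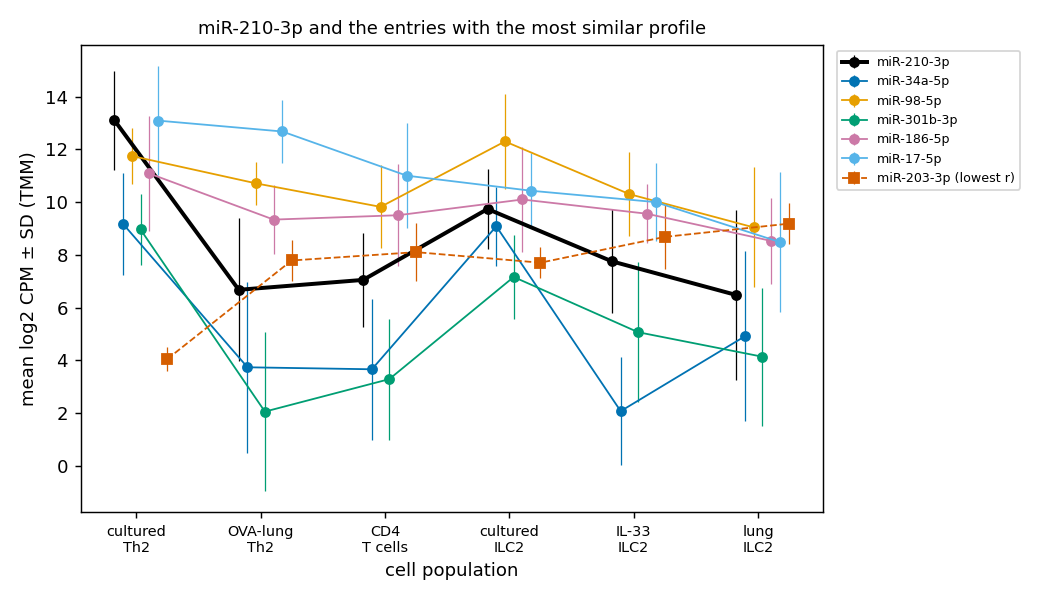
Mean log2 CPM ± SD over libraries (TMM, prior count 2) in each population for miR-210-3p, the 5 entries with the most similar profile and miR-203-3p with the lowest r. miR-210-3p reaches a mean of 13.10 in cultured Th2 and 9.74 in cultured ILC2 and lies between 6.48 and 7.75 elsewhere.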

How the data were processed

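The authors made expected counts for each mature or precursor entry with exceRpt, per the labels, and deposited them as 4 tables (871, 1141, 482 and 725 entries, 417 shared by all). Of their values above 0, 9.98% are fractional. A further deposited table gives RPM (each column sums to 1000000), per the file headers, for 1099 entries. It matches the counts of miR-210-3p within 0.4125 read. The submitters' processing notes name mm10 and DESeq2, and the aligner is not given in the sources used here. Among value columns 46 were used and 6 (group averages) were not; 1 blank line was dropped. An entry missing from a table was taken as 0.

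Expected counts were rounded and fitted with edgeR 4.0.16 (R 4.3.3): TMM factors (0.203 to 2.66), filterByExpr by group, which left 384 entries, and 1 quasi-likelihood fit of all 23 libraries. The fit without the block was also run on simulated counts for cultured Th2 against CD4 T cells. Those counts held no differences between sets, so that run does not bear on the blocked fits. The SE of an edgeR difference between populations is its size over the square root of the quasi-likelihood F statistic. For miR-210-3p that SE is given to describe the spread and not as a test. CPM are rounded counts over the library total, TMM-scaled where said. The same-numbered libraries share a count table, per the labels, and deviated together: 51 of 55 same-number pairs correlated above 0.1 (median 0.39, lowest -0.03; median -0.16 for different numbers). Fits with that number as a block are therefore given beside those without it. Alternatives were DESeq2 1.42.0, limma 3.58.1 on log2(RPM + 1), other scalings, no filter and leaving out each library. The member and the lists were chosen with earlier results of these data known. The text names both arms, the 5 entries most and 3 least like miR-210-3p, markers, miR-21a-5p and at most 4 called list members a comparison by p; others are named as such.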

Additional observations from a re-analysis of the deposited data

Results flagged for a closer look

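In 14 sets of 4 libraries (miR-210-3p CPM, miR-210-5p CPM and the share of miR-21a-5p, by population), 3 had a highest library separated from the next by more than Dixon's 95% critical share of the range of its group. Chance gives about 1 in 20 only for normally distributed values that vary in every library. The CPM were taken on a linear scale, on which lung ILC2 ran from 23.3 to 2397, so that rate is not assured here. It does not apply to the 2 for miR-210-5p, since 1 library with reads among libraries at 0 always gives a gap of the whole range. For miR-210-3p the gap is a description. Lung ILC2 library 1 had 2397 CPM of miR-210-3p, a gap of 0.882 of the range. IL-33 ILC2 library 2 had 11.15 CPM of miR-210-5p, which is 1 read in the only library of that population with any. Cultured ILC2 library 2 had 6.313 CPM of miR-210-5p, from 21 reads, and the other 3 libraries had none.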

How the results depend on the processing

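The 9 fitted differences of miR-210-3p were recomputed under 12 alternatives each (108 values), with the fits that left out 1 library kept apart. None of the 108 moved by more than 1 pooled SD of the libraries. That SD is wide, 2.67 on the log2 scale for IL-33 ILC2 against lung ILC2. The sign changed for IL-33 ILC2 against lung ILC2 (6 of 12, -1.04 to 1.04) and OVA-lung Th2 against CD4 T cells (5 of 12, -0.92 to 0.92), and for none of the other 7. Leaving out 1 library gave -1.0 to 2.45 for IL-33 ILC2 against lung ILC2, 1.07 to 4.19 for cultured ILC2 against lung ILC2, 4.79 to 7.72 between cultured Th2 and CD4 T cells and -1.85 to 1.83 between lung ILC2 and CD4 T cells.

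Calls in the hypoxia-linked lists depended on the setting, and the cause was not tested. With the replicate block, then with it and DESeq2 size factors, then with it and library totals, there were 9, 11 and 5 calls in cultured Th2 (2 without the block). Their split was 7 higher and 2 lower, 9 and 2, and 1 and 4, beside 33 and 18, 43 and 11, and 11 and 24 of all 384 entries. OVA-lung Th2 gave 2, 5 and 2 (0 without the block), all higher, beside 11, 19 and 10 higher of all. Cultured ILC2 gave 2, 2 and 3 (1 without the block), split 2 and 0, 1 and 1, and 1 and 2, beside 14 and 3, 7 and 9, and 5 and 10 of all. IL-33 ILC2 gave 1, 1 and 1 (0 without the block), beside 2, 1 and 1 of all. Without the block, cultured Th2 gave 1 call with DESeq2 size factors, beside 1 higher and 2 lower of all 384 entries. With no filter there was 1, beside 2 and 1 of 1092. DESeq2 gave 4 of 20 members, beside 24 higher and 7 lower of 256. With 1 library left out there were 0 to 2, beside 0 to 5 higher and 1 to 3 lower of all. Cultured ILC2 gave 0 calls with size factors, library totals and no filter, beside 0 of all entries. They gave 0 with DESeq2, beside 1 higher and 3 lower of 256, and 0 with limma, beside 4 higher and 0 lower of 384. With 1 library left out there were 0 to 1, beside 0 to 1 higher of all. OVA-lung Th2 gave 1 with library totals, beside 5 higher and 0 lower of all 384. They gave 3 with DESeq2, beside 18 higher and 10 lower of 263, and 1 with limma, beside 3 and 3 of 384. Leaving out set 4 was an alternative chosen after seeing the data, like the block with other scalings. In cultured Th2 it gave 9 calls with the block, beside 19 higher and 6 lower of all 337 entries. Without the block it gave 1, beside 3 and 1. OVA-lung Th2 gave 2 and 1, beside 5 higher and 3 lower with the block and 1 and 0 without it. Cultured ILC2 gave 1 and 1, beside 2 higher and 1 lower with the block and 1 and 0 without it. IL-33 ILC2 gave 0 and 0, beside 0 of all entries in both fits. With the block, leaving out set 4 lost miR-21a-5p in IL-33 ILC2 (adjusted p = 0.09267) and miR-155-5p in cultured ILC2 (0.3542), of 337 tested entries. Of the 5 entries most like miR-210-3p, 3 remained when centred by set and 2 over population means. Libraries with under 100 reads of miR-210-3p, among them all OVA-lung Th2, limit the comparisons made in animals.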
